A study of Mus musculus with 6 samples.

Results

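The long retained introns described here are intron retention events that span more than 500 bases in A375 xenograft tumours. A375 is an established human melanoma cell line, labelled WT for genotype, and it was grown under the skin of BALB/c nude mice. Nude mice lack a thymus and mature T cells but keep B cells, natural killer cells and macrophages. ZLD1039, an inhibitor of the histone methyltransferase EZH2, was given by oral gavage once daily at 100 mg/kg until day 27 to one group of mice. The other group received vehicle on the same schedule. Each group held 5 mice per the labels, and 3 ZLD1039 tumours and 3 vehicle tumours were sequenced. The labels do not state outright that the tumours came from separate mice, so the tests speak of the spread among these tumours. All tumours came from the same cell line. The sources used here do not state whether reads of the mouse host were separated from those of the tumour cells.

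An event was a member when the deposited event lists held both its intron-retaining form and its spliced form, with the same locus, chromosome, start and end, and a length over 500 bases. This gave 2158 long introns among 5218 paired introns in the series, or 41.4%. The other 3060 introns spanned up to 500 bases. The event length counts the last base of the upstream exon and the first base of the downstream exon, so that the intron itself is 2 bases shorter.

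Splicing removes introns from most transcripts before they leave the nucleus. A transcript that keeps an intron is often held in the nucleus or destroyed by nonsense-mediated decay in the cytoplasm, so that retention can lower protein output without a change in transcription. Short introns are known to be retained more often than long ones in vertebrates. EZH2 is the catalytic subunit of Polycomb repressive complex 2, which methylates histone H3 and keeps its target genes silent. It is not part of the splicing machinery.

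The members spanned up to 11187 bases, with a median of 1070, and lay in 1433 loci. Retention was the summed FPKM (fragments per kilobase of transcript, scaled to the fragments mapped) of the retaining form over the summed FPKM of both forms. It was measured where both forms together were above 0 in every tumour and averaged at least 1 FPKM. This held for 1472 long introns (68.2%) in 1142 loci, 1140 of them with an Ensembl gene identifier. Of the 686 others, 589 had no listed form in at least 1 tumour and 97 averaged under 1 FPKM. Of the host loci, 894 held 1 measured long intron and 248 held 2 or more, up to 5, so that members of 1 locus share transcripts. The introns lay on 25 chromosome names, 795 on the plus strand and 677 on the minus strand. The retaining exon matched a listed first exon in 1 intron and a listed last exon in 1. A match required the same start and end, so the other introns need not be internal. The retaining exon had a median length of 1439.5 bases, of which the intron made up a median of 79.3%. Another paired intron overlapped 463 of them, 261 of them with the same start and 253 with the same end, and 102 contained a short intron.

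The files give loci and human Ensembl identifiers without gene symbols, so introns are named by chromosome and position as in the files, and the tumour label could not be checked against melanoma markers. The number of events listed per tumour was between 118402 in ZLD1039 tumour 2 and 127722 in vehicle tumour 1. ZLD1039 tumour 2 also stood apart from the other 5 on the leading principal component of locus abundance, at 51.9 against -13.3 to -4.02, which carried 34.2% of the variance. It listed the retaining form of the fewest long introns, 915 of 2158, while ZLD1039 tumours 1 and 3 listed 1146 and 1075 and the vehicle tumours 1184, 1070 and 1016. The sequencing depth is unknown, and its part in these counts was not tested. In bulk tumours, fewer cells of a type and less RNA per cell cannot be told apart.

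The retaining form of a long intron was usually seen in a few tumours only. It was listed in all 6 tumours for 421 of the 1472 measured long introns (28.6%), against 1387 of 2285 measured short introns (60.7%). It was listed in a single tumour for 471 long introns (32.0%), against 329 short introns (14.4%). Between these ends, 235, 124, 105 and 116 long introns had the retaining form listed in 2, 3, 4 and 5 tumours. The spliced form was far more regular and was listed in all 6 tumours for 1361 long introns, and both forms were listed in all 6 for 348.

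**Figure D1:**
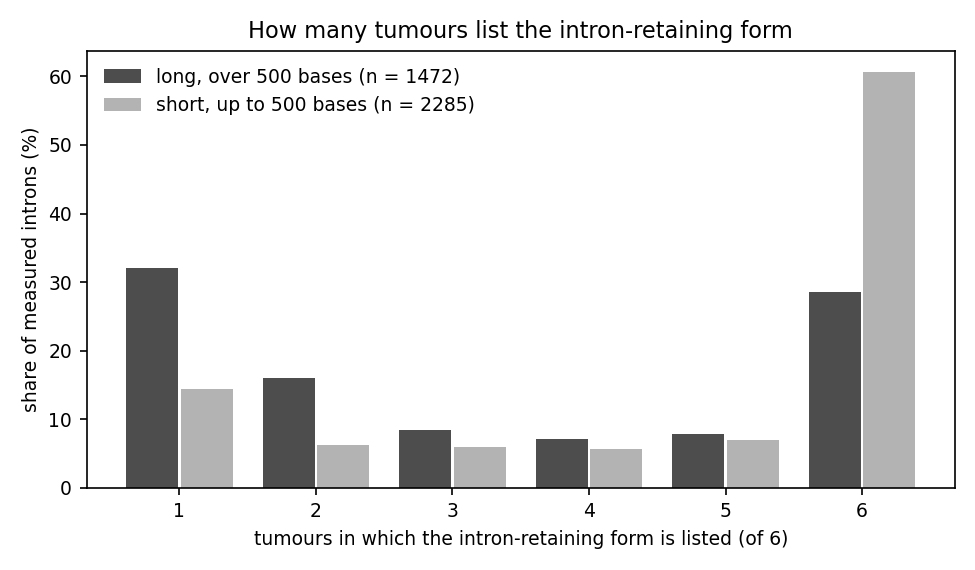
Share of measured introns (vertical axis, in percent) by the number of tumours whose list holds the intron-retaining form (horizontal axis), for 1472 long introns (dark bars) and 2285 short introns (light bars). The long introns peak at 1 tumour (32.0%) and at 6 tumours (28.6%), while 60.7% of the short introns stand at 6.

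Listing in all 6 tumours was less common in each longer class, where a class such as 500 to 1000 bases leaves out its lower limit and holds its upper one. The retaining form was listed in all 6 tumours for 76.7% of introns of up to 100 bases, 70.6% of those of 100 to 200 bases and 47.1% of those of 200 to 500 bases. Among the long introns this share was 36.4% at 500 to 1000 bases, 24.6% at 1000 to 2000 bases and 17.6% at 2000 to 5000 bases. Above 5000 bases it was 1 of 28 introns (3.57%). Median host abundance was 12.3 FPKM at 500 to 1000 bases, 12.8 at 1000 to 2000, 14.0 at 2000 to 5000 and 16.0 above 5000.

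Most long introns were retained at a low level, and a small group was retained almost completely. The mean retention over the 6 tumours had a median of 5.70% across long introns, against 6.35% across short introns. It was up to 1% for 142 long introns, over 1% and up to 5% for 554, over 5% and up to 10% for 217, and over 10% and up to 20% for 237. A further 188 lay over 20% and up to 50%, 82 over 50% and up to 90%, and 52 above 90%. Retention above 50% was thus found for 134 long introns (9.10%), against 17.5% of short introns.

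Averaged over introns, retention was lower for long than for short introns in every tumour. The long introns averaged 16.99, 14.2 and 15.6% in the ZLD1039 tumours and 17.2, 15.7 and 14.9% in the vehicle tumours. The short introns averaged 22.3, 22.0 and 21.1% in the ZLD1039 tumours and 23.3, 22.0 and 22.4% in the vehicle tumours. The difference, long minus short, was between -7.87 and -5.33 percentage points and was below 0 in 6 of 6 tumours (exact sign-flip test over tumours, two-sided p = 0.03125, the smallest that 6 tumours allow). That test covers the spread among tumours, which were scored on the same introns, and not the spread among introns. With medians over introns in place of means, the difference was between -2.82 and -1.72 points and below 0 in 6 of 6 tumours. The medians of the long introns were themselves near the floor, between 0% in ZLD1039 tumour 2 and 1.13% in vehicle tumour 1. At the length limit itself, the 106 introns up to 50 bases above the limit averaged 16.5% and the 121 in the 50 bases up to the limit averaged 19.2%.

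The same held inside loci that host both kinds. In 372 loci with at least 1 measured long and 1 measured short intron, retention averaged 16.9% for the long and 24.7% for the short introns. The difference within loci was -6.67, -7.90 and -7.36 percentage points in the ZLD1039 tumours and -8.88, -7.34 and -8.51 in the vehicle tumours (exact sign-flip test over tumours, p = 0.03125). The direction was far from uniform across loci: the long introns were lower in 196 loci and higher in 169.

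The gap between long and short introns went along with how many tumours listed the retaining form. Where it was listed in all 6 tumours, long introns averaged 31.0 ± 1.23% in ZLD1039 and 30.5 ± 0.65% in vehicle tumours. Short introns of this kind averaged 30.9 ± 0.68% in ZLD1039 and 31.4 ± 0.55% in vehicle tumours (SD, n = 3 each). The difference, long minus short, then lay between -1.47 and 1.34 percentage points and was below 0 in 4 of 6 tumours. Where it was missing from at least 1 tumour, long introns averaged 9.41 ± 1.62% in ZLD1039 and 10.1 ± 1.37% in vehicle tumours. Short introns there averaged 7.86 ± 0.79% in ZLD1039 and 8.93 ± 0.87% in vehicle tumours, so that the long ones were higher in each tumour. Introns were grouped here by their own listing, and these values are a description.

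**Figure D2:**
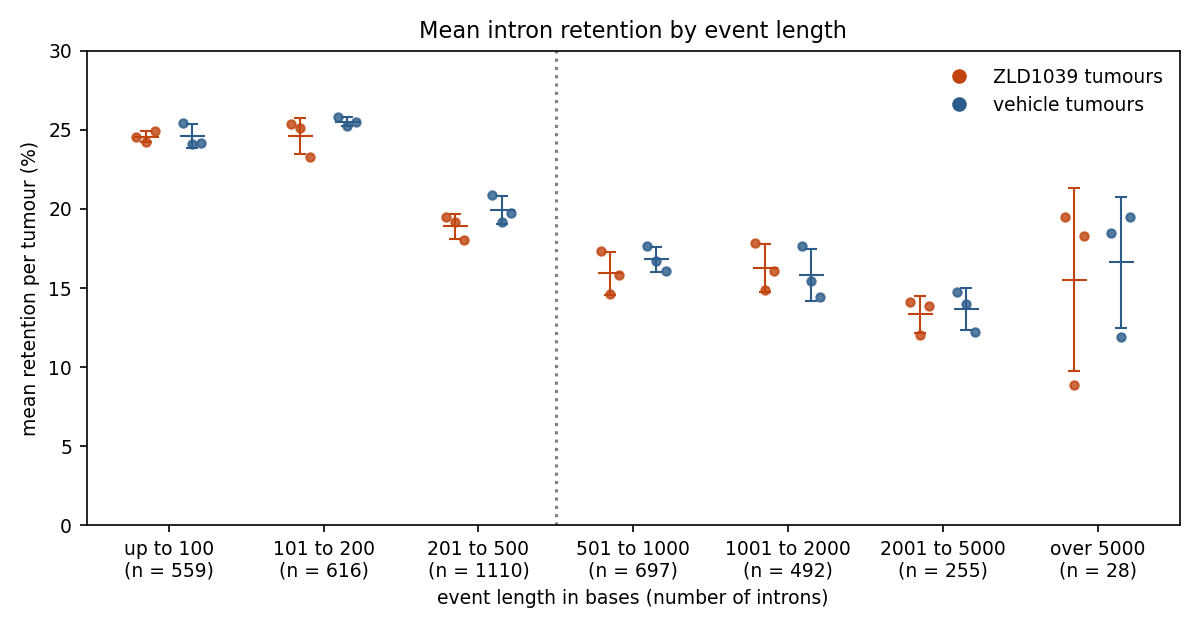
Mean retention in each tumour (vertical axis, in percent; points) by event length in bases (horizontal axis, with the number of introns), for ZLD1039 (left, orange) and vehicle (right, blue) tumours; horizontal and vertical bars give the mean and SD of 3 tumours, and the dotted line marks 500 bases. Group means lie between 24.6 and 25.5% up to 200 bases and between 13.3 and 16.8% over 500 bases, and the 2 groups overlap in each long class.

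Over all measured long introns, retention averaged lower at 2000 to 5000 bases than at 500 to 1000 and at 1000 to 2000 bases. This held in 6 of 6 tumours and was not tested. Retention averaged 15.9 ± 1.34% in ZLD1039 tumours and 16.8 ± 0.79% in vehicle tumours at 500 to 1000 bases (697 introns). At 1000 to 2000 bases (492 introns) the averages were 16.3 ± 1.499% in ZLD1039 and 15.8 ± 1.63% in vehicle tumours, and at 2000 to 5000 bases (255 introns) they were 13.3 ± 1.15% in ZLD1039 and 13.7 ± 1.32% in vehicle tumours. The 28 introns over 5000 bases averaged 15.5 ± 5.81% in ZLD1039 and 16.6 ± 4.12% in vehicle tumours, and single introns in this class had a mean range of 44.4 percentage points over the 6 tumours. Each adjusted exact permutation p for ZLD1039 against vehicle was 0.7 in these classes (two-sided; 3 against 3 cannot go below 0.1, SD with n = 3). Spearman's rho of length and mean retention across the 1472 introns, which share libraries and often loci, was -0.0060, as a description. Among the 421 introns listed in all 6 tumours it was 0.12. These introns averaged 27.7% in ZLD1039 and 27.5% in vehicle tumours at 500 to 1000 bases. At 1000 to 2000 bases they averaged 37.2% in ZLD1039 and 36.4% in vehicle tumours. At 2000 to 5000 bases it was 33.9% in ZLD1039 and 32.4% in vehicle tumours, above the means at 500 to 1000 bases. Being grouped by their own listing, they give a description only.

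Host abundance, the level of the locus in FPKM, was between 1.16 and 976 FPKM over the long introns with a median of 12.7 FPKM. The introns were put into 3 groups of near equal size by the mean abundance of their host, with limits at 8.89 and 19.3 FPKM. The retaining form was listed in all 6 tumours for 22.4% of introns in the least abundant hosts, 28.0% in the middle group and 35.4% in the most abundant hosts. Mean retention itself differed little between these groups. It was 15.8 ± 2.23% in ZLD1039 and 16.6 ± 1.33% in vehicle tumours for the least abundant hosts, and 15.2 ± 0.91% in ZLD1039 and 16.0 ± 1.28% in vehicle tumours for the middle group. For the most abundant hosts it was 15.8 ± 1.40% in ZLD1039 and 15.2 ± 1.38% in vehicle tumours, and the adjusted exact permutation p was 0.6 in each of the 3 groups. Spearman's rho of host abundance and mean retention was -0.11 across all 1472 introns and -0.26 across the 421 listed in all 6 tumours. Host abundance was taken from events of the same locus, which can include a form of the intron itself, so the quantities are not independent.

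Taken by length and host together, the averages of ZLD1039 tumours ran from 11.9% for introns of 2000 to 5000 bases in the middle hosts to 17.1% for introns of 1000 to 2000 bases in the most abundant hosts. In vehicle tumours they ran from 11.97% for the introns of 2000 to 5000 bases in the middle hosts to 18.0% for introns of 500 to 1000 bases in the least abundant hosts. Short introns showed a clearer step with host abundance, at 23.9 ± 1.12% in ZLD1039 and 25.0 ± 0.93% in vehicle tumours for the least abundant hosts, against 20.5 ± 0.33% in ZLD1039 and 20.8 ± 0.61% in vehicle tumours for the most abundant.

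Retention of a single long intron varied widely over the 6 tumours of both groups together, and it also varied within groups. The range over the 6 tumours had a median of 18.8 percentage points and exceeded 50 points for 280 introns (19.0%), against 15.9% of short introns. The SD within a group had a median of 5.59 points in ZLD1039 and 6.08 points in vehicle tumours. Across the 1472 introns, Pearson's r between tumours of the same group lay between 0.596 and 0.656 and between tumours of different groups between 0.6005 and 0.662, and these ranges overlap almost wholly. Among the 421 introns listed in all 6 tumours, r lay between 0.814 and 0.860 within groups and between 0.786 and 0.847 between groups.

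The comparison of ZLD1039 with vehicle asks whether inhibition of EZH2 in the tumours went along with a change in intron retention. No difference was detected for long introns as a whole. Their mean retention was 15.6 ± 1.42% in ZLD1039 tumours and 15.9 ± 1.13% in vehicle tumours, a difference of -0.35 percentage points (SD, n = 3 each; exact two-sided permutation test, p = 0.7). This difference was positive without ZLD1039 tumour 2 (0.37 points) or without vehicle tumour 1 (0.26 points). The long-minus-short difference averaged -6.24 ± 1.42 points in ZLD1039 and -6.64 ± 0.73 points in vehicle tumours (adjusted exact permutation p = 0.7).

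Intron by intron, 692 long introns had a higher mean in ZLD1039 tumours, 779 a lower mean and 1 an equal mean, with a median difference of -0.13 percentage points. Over all 18913 exons, introns and runs of them measured the same way, the median difference was -0.00036 points. The difference was within 5 points for 762 long introns (51.8%), above 20 points for 86 and below -20 points for 90. The ZLD1039 values lay wholly above the vehicle values for 32 long introns (2.174%), where the share over all 18913 was 3.06%. They lay wholly below for 49 (3.33%), where it was 3.39%. In either direction, groups were apart for 6.45% of the whole table. Neither share of the long introns was above that of the whole table. The retaining form was listed in all ZLD1039 tumours and no vehicle tumour for 7 long introns (0.476%), where the like share over all 18913 was 0.254%. It was listed in all vehicle tumours and no ZLD1039 tumour for 4 (0.272%), where the like share was 0.301%. These are a few introns, and the shares were not tested against each other.

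No long intron passed the test of retention. Of 13274 exons, introns and runs tested with limma at a Benjamini-Hochberg adjusted p under 0.05, 0 were called (0%), and so were 0 of the 1317 long introns among them. At an unadjusted limma p under 0.05 there were 25 long introns (1.90%) and 278 of the whole table (2.09%), and the smallest adjusted p was 0.72. Both shares lay below the fraction of 0.05 that such a limit passes where nothing differs, so this fit passed few introns. The 95% interval of a single difference, not adjusted for the number of tests, reached a median of 16.4 percentage points to either side. This is not a detection limit of the adjusted test. Far larger differences also went uncalled, such as 66.1 and -69.9 points in introns named below, so the lack of calls does not exclude large differences in single introns.

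**Figure D3:**
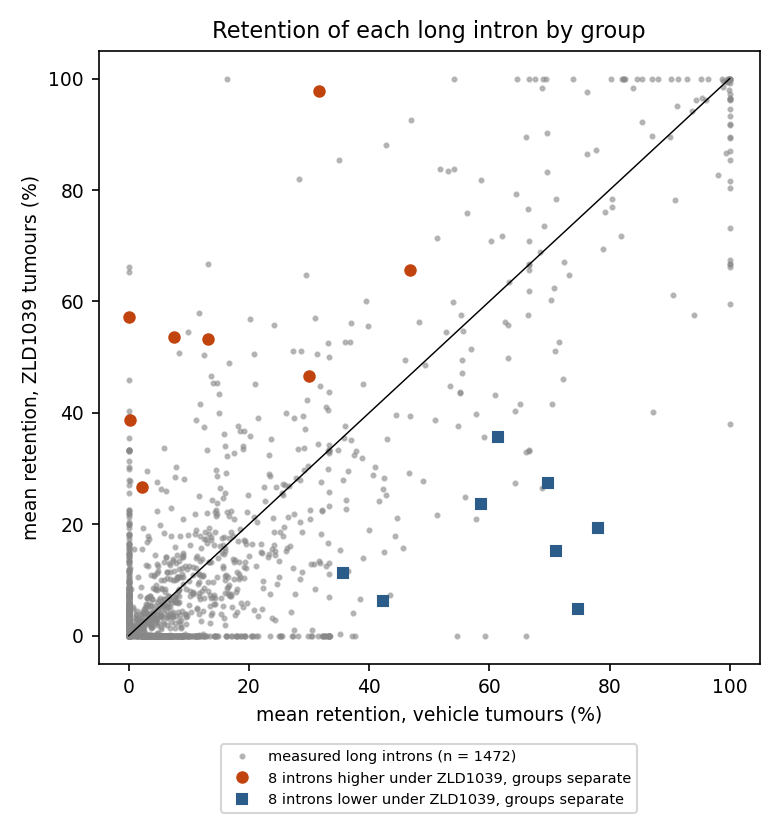
Mean retention in ZLD1039 tumours (vertical axis, in percent) against vehicle tumours (horizontal axis, in percent) for each of the 1472 measured long introns (grey points); the line marks equal values. Marked introns were chosen among those with separate groups and a mean of at least 5 FPKM in both forms together. The 8 with the highest positive difference are orange circles and the 8 with the lowest negative difference are blue squares. Grey points also lie far from the line on both sides.

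The abundance of single forms gave 2 calls, both of intron-retaining forms that rose. Among 85258 events tested, 31 were called by limma (0.0364%), 23 of them higher under ZLD1039 (0.027%) and 8 lower (0.00938%). The long introns contributed 752 retaining and 1540 spliced forms, of which 2 retaining forms and 0 spliced forms were called, with 48 (6.38%) and 74 (4.81%) at an unadjusted p under 0.05. The share of all events at that level was 4.72%.

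The clearest case was an intron of 1263 bases on the plus strand of chromosome 20, from 42087149 to 42088411, in the locus with the identifier ENSG00000124193. In ZLD1039 tumours its retaining form reached 19.8, 18.8 and 23.1 FPKM, and no vehicle tumour listed it (limma, adjusted p = 0.0063). Its spliced form was at 13.5, 14.3 and 18.3 FPKM in ZLD1039 tumours and 37.1, 30.5 and 42.0 FPKM in the vehicle tumours, a difference of -1.19 on the log2(FPKM + 1) scale (SE 0.20, limma, adjusted p = 0.35). The groups do not overlap in either form.

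The sum of both forms was 33.4, 33.1 and 41.4 FPKM in ZLD1039 tumours against 37.1, 30.5 and 42.0 FPKM in vehicle tumours, and these overlap. The host locus was at 38.7, 39.9 and 44.3 FPKM in ZLD1039 tumours and 45.3, 40.2 and 56.6 FPKM in vehicle tumours (log2 difference -0.19, SE 0.18, limma, adjusted p = 0.88). Retention was thus 59.4, 56.7 and 55.8% in ZLD1039 tumours and 0% in each vehicle tumour, a difference of 57.3 percentage points (SE 11.2, limma, adjusted p = 0.72, and 0.0044 without the mean-variance trend). A form missing from a tumour's list was taken as 0 FPKM, which need not mean that the transcript was absent. The call on the retaining form was lost when any 1 tumour was left out, with adjusted p between 0.060 and 0.13.

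The other called form belonged to an intron of 1407 bases on the minus strand of chromosome X, from 151079555 to 151080961. The retaining form was at 7.08, 6.52 and 6.18 FPKM in ZLD1039 tumours and unlisted in the vehicle tumours (limma, adjusted p = 0.047). The spliced form was listed in 1 tumour of each group, at 9.61 FPKM in ZLD1039 tumour 2 and 6.69 FPKM in vehicle tumour 2. Vehicle tumours 1 and 3 listed neither form, so retention was not measured for this intron. The host was at 7.56, 16.1 and 6.18 FPKM in ZLD1039 tumours and 0.0019, 8.21 and 1.80 FPKM in vehicle tumours, which overlap (log2 difference 1.78, SE 0.73, limma, adjusted p = 0.88). The call was lost when any 1 tumour was left out (adjusted p between 0.12 and 0.21), and under a pseudocount of 0.1 (0.10).

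Among the 967 long introns with at least 5 FPKM in both forms together, the ZLD1039 values lay wholly above the vehicle values for 23 (2.38%), against 3.13% of the whole table at that limit. They lay wholly below for 41 (4.24%), against 3.53%. The 8 with the largest positive and the 8 with the largest negative difference in mean were picked for this separation, and none of them passed the test of retention (limma, adjusted p of 0.72 for each). The chromosome 20 intron above is among the first 8.

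An intron of 1217 bases on chromosome 14, from 70235968 to 70237184, had retention of 96.7, 97.9 and 98.9% in ZLD1039 tumours against 28.9, 66.1 and 0.20% in vehicle tumours. The ZLD1039 tumours were alike while the vehicle tumours spanned most of the scale. Its host was at 60.4, 53.6 and 39.8 FPKM in ZLD1039 tumours and 36.8, 28.3 and 35.8 FPKM in vehicle tumours (log2 difference 0.58, SE 0.20, limma, adjusted p = 0.88). An intron of 596 bases on chromosome 16, from 630263 to 630858, had retention of 53.3, 16.9 and 46.2% in ZLD1039 tumours and 0.22, 0.29 and 0.33% in vehicle tumours. Its retaining form was at 4.02, 0.98 and 3.06 FPKM in ZLD1039 tumours, with 0.012, 0.023 and 0.023 FPKM in vehicle tumours, so the form was listed in every tumour but at a trace in the vehicle tumours.

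A pair of introns with moderate retention in both groups lay on chromosomes 12 and 2. The intron of 1025 bases on chromosome 12, from 58150867 to 58151891, had retention of 60.4, 63.2 and 73.6% in ZLD1039 tumours and 47.4, 55.2 and 37.6% in vehicle tumours, with a host near constant at 9.68 ± 0.77 FPKM in ZLD1039 and 9.28 ± 0.19 FPKM in vehicle tumours (SD, n = 3 each). The intron of 877 bases on chromosome 2, from 38975795 to 38976671, had 43.1, 46.6 and 50.4% in ZLD1039 tumours and 42.3, 39.6 and 8.12% in vehicle tumours. Vehicle tumour 3 was far below the other 2, which lay just under the lowest ZLD1039 tumour.

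In 3 more introns a single ZLD1039 tumour was far from the others or levels were low. The intron of 4514 bases on chromosome 3, from 50000118 to 50004631, had retention of 27.8, 100 and 33.1% in ZLD1039 tumours and 0, 15.1 and 7.36% in vehicle tumours. The intron of 514 bases on chromosome 6, from 4061934 to 4062447, had 35.0, 93.1 and 31.6% in ZLD1039 tumours and 11.7, 14.4 and 13.3% in vehicle tumours. In both, the highest value was that of ZLD1039 tumour 2, in which the spliced form was at 0 and 0.159 FPKM. The intron of 692 bases on chromosome 12, from 53878149 to 53878840, had 9.86, 41.6 and 28.6% in ZLD1039 tumours and 6.54, 0.00081 and 0.0046% in vehicle tumours.

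**Figure D4:**
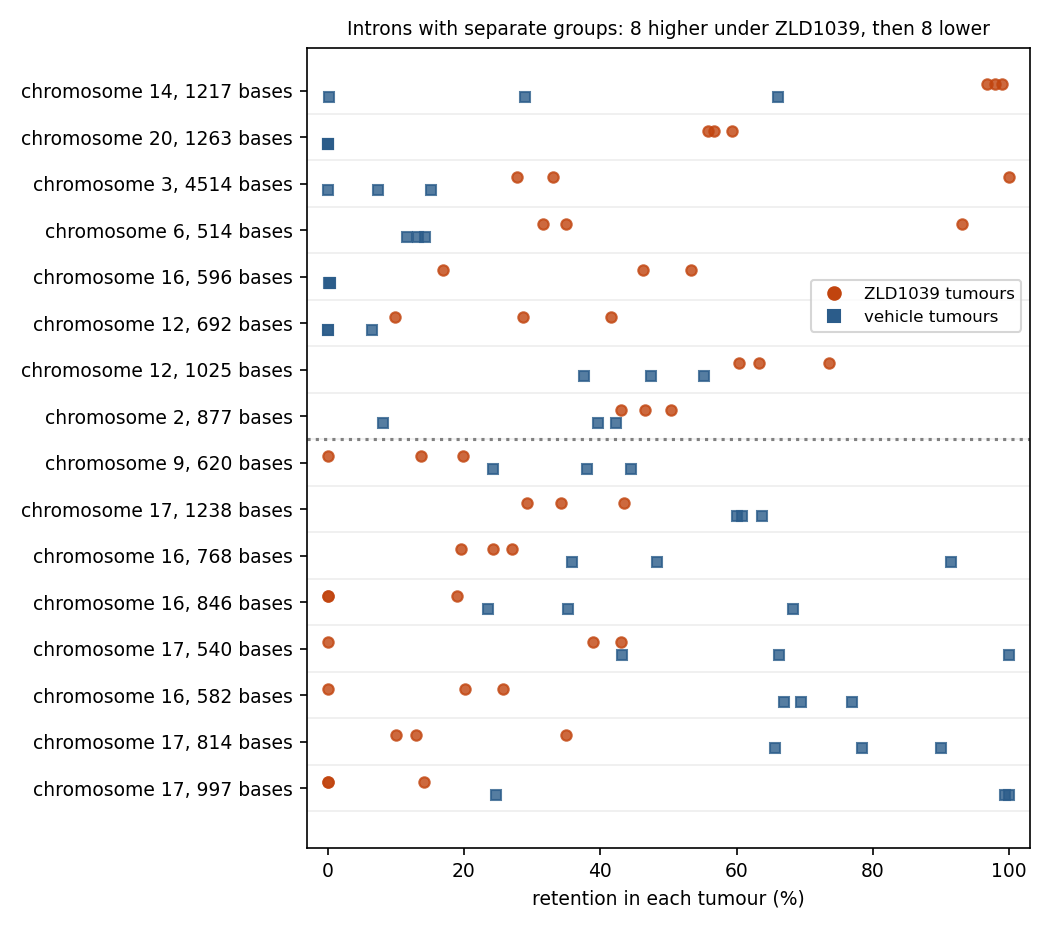
Retention in each tumour (horizontal axis, in percent) for the 16 long introns picked for separate groups with at least 5 FPKM in both forms together, 8 higher under ZLD1039 (upper rows) and 8 lower (lower rows); ZLD1039 tumours are orange circles and vehicle tumours blue squares. In the chromosome 20 intron the ZLD1039 tumours sit between 55.8 and 59.4% and the vehicle tumours at 0%, while most other rows hold at least 1 tumour far from its group.

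Among the 8 introns picked for lower retention under ZLD1039, the most abundant was an intron of 1238 bases on the minus strand of chromosome 17, from 62496891 to 62498128. Its retaining form was at 43.9, 37.6 and 43.4 FPKM in ZLD1039 tumours and 100.6, 85.6 and 85.2 FPKM in vehicle tumours (log2 difference -1.10, SE 0.16, limma, adjusted p = 0.21). Its spliced form was at 57.0, 72.1 and 105 FPKM in ZLD1039 tumours and 64.7, 57.1 and 48.6 FPKM in vehicle tumours, which overlap. Retention was 43.5, 34.3 and 29.3% in ZLD1039 tumours and 60.8, 59.99 and 63.7% in vehicle tumours. Its host was at 127, 127 and 166 FPKM in ZLD1039 tumours, each below the 173, 167 and 171 FPKM of the vehicle tumours (log2 difference -0.30, SE 0.17, limma, adjusted p = 0.88).

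The other introns picked on chromosome 17 had smaller totals or mixed levels. The intron of 814 bases from 55943905 to 55944718 had retention of 13.0, 10.0 and 34.9% in ZLD1039 tumours and 78.4, 65.6 and 90.1% in vehicle tumours, with the retaining form at 1.58, 0.86 and 3.87 FPKM in ZLD1039 tumours and 8.43, 11.3 and 16.0 FPKM in vehicle tumours. The intron of 997 bases from 74731240 to 74732236 had 0, 14.2 and 0% in ZLD1039 tumours and 100.0, 24.7 and 99.4% in vehicle tumours, although its host was at 105 ± 22.6 FPKM in ZLD1039 and 104 ± 9.61 FPKM in vehicle tumours (SD, n = 3 each). Its spliced form was at 0.0060 and 0.079 FPKM in vehicle tumours 1 and 3 but at 55.2 FPKM in vehicle tumour 2, so the vehicle tumours themselves split. A further intron there, of 540 bases from 36872081 to 36872620, had 39.0, 0 and 43.0% in ZLD1039 tumours and 43.2, 99.9 and 66.2% in vehicle tumours.

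On chromosome 16 there were 3 introns of this kind. The one of 582 bases from 110537 to 111118 had retention of 25.7, 0 and 20.1% in ZLD1039 tumours and 66.9, 69.4 and 77.0% in vehicle tumours. The one of 846 bases from 23504779 to 23505624 had 18.9, 0.0095 and 0.00033% in ZLD1039 tumours and 68.2, 35.3 and 23.6% in vehicle tumours. The groups are apart in both, by a wider margin in the first. The one of 768 bases from 70542367 to 70543134 had 19.6, 24.3 and 27.1% in ZLD1039 tumours and 48.3, 91.5 and 35.8% in vehicle tumours. The last of the 8, of 620 bases on chromosome 9 from 111697969 to 111698588, had 19.8, 0 and 13.7% in ZLD1039 tumours and 38.0, 44.6 and 24.3% in vehicle tumours.

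Among the hosts of long introns, 1 locus rose. Of 10834 loci tested, limma called 2 (0.0185%), both higher under ZLD1039, and 1 of these was among the 1409 tested hosts of long introns. At an unadjusted p under 0.05 there were 77 hosts (5.46%), near the 4.94% of all loci. The called host, ENSG00000214253, was at 75.3, 65.5 and 78.4 FPKM in ZLD1039 tumours and 24.1, 17.5 and 20.4 FPKM in vehicle tumours, a difference of 1.78 on the log2(FPKM + 1) scale (SE 0.17, limma, adjusted p = 0.048). It holds a long intron of 1365 bases on chromosome 7, from 100876195 to 100877559.

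Both forms of that intron overlapped between the groups although the host rose. The intron was singled out for its host, after its values were seen. The retaining form was at 5.89, 4.93 and 4.28 FPKM in ZLD1039 tumours and 4.87, 4.67 and 5.64 FPKM in vehicle tumours. The spliced form was at 1.67, 2.91 and 2.20 FPKM in ZLD1039 tumours and 3.69, 1.94 and 1.62 FPKM in vehicle tumours. Retention was 77.9, 62.8 and 66.1% in ZLD1039 tumours and 56.9, 70.7 and 77.7% in vehicle tumours, a difference of 0.51 percentage points (SE 14.2, limma). Together these forms made up a small share of the locus in ZLD1039 tumours, so most of its abundance lay in other events. In vehicle tumours, where the host was lower, the same forms made up a larger share of it. No host of a long intron was called when any 1 tumour was left out, or without the filter on low values.

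**Figure D5:**
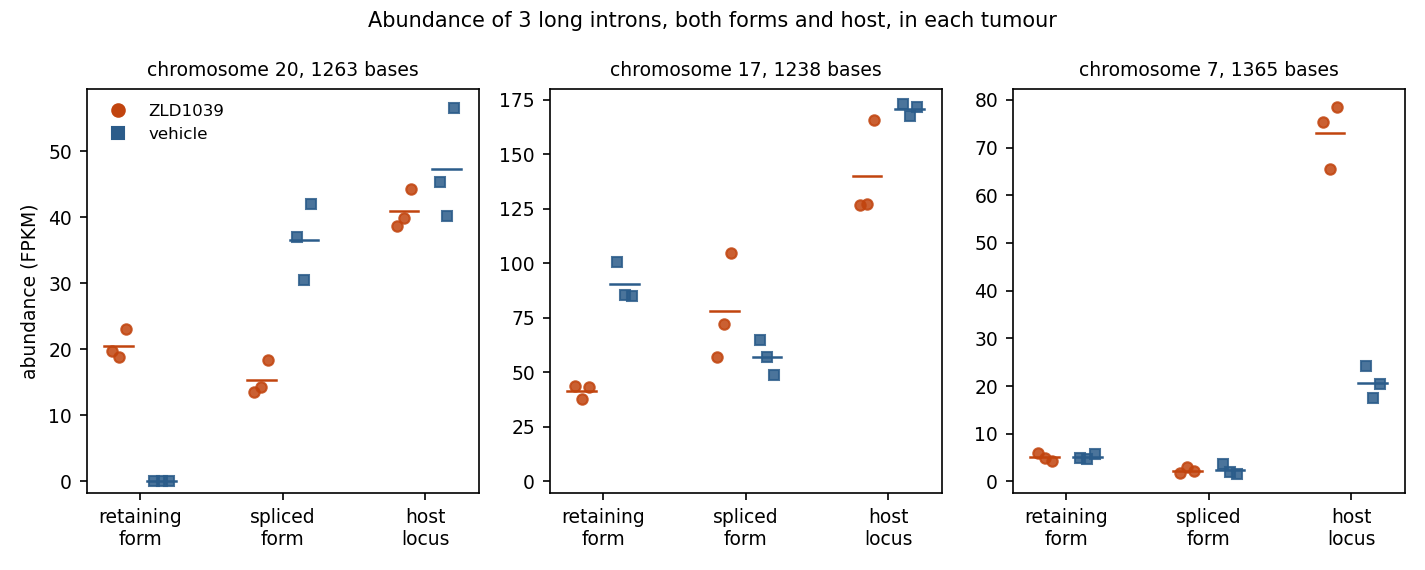
Abundance in FPKM (vertical axes, linear) of the retaining form, the spliced form and the host locus for 3 long introns, on chromosomes 20, 17 and 7, in ZLD1039 (orange circles) and vehicle (blue squares) tumours, with the mean of 3 tumours as a line. On chromosome 20 the retaining form is listed in the ZLD1039 tumours alone while the host values overlap, on chromosome 17 the retaining form is lower under ZLD1039, and on chromosome 7 the host is higher while the values of both forms overlap.

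The retaining form of the longest introns was seldom listed. The 5 longest measured introns spanned from 7062 to 10676 bases, and none had the retaining form listed in all 6 tumours. The longest, on chromosome 16 from 586142 to 596817, had retention of 100% in ZLD1039 tumour 3 and 0% in the other 5, where its forms together were between 1.11 and 17.2 FPKM. The second longest, of 9633 bases on chromosome 9 from 130986668 to 130996300, had 28.6, 28.2 and 0% in ZLD1039 tumours and 0, 63.4 and 56.7% in vehicle tumours. In the other 3 the retaining form was listed in a single tumour, at retention of 16.4% in ZLD1039 tumour 2, 96.7% in vehicle tumour 3 and 7.12% in vehicle tumour 1.

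The most abundant introns differed in retention and in how often the retaining form was listed. The highest total belonged to an intron of 1450 bases on chromosome 15, from 69746060 to 69747509, with a mean of 872 FPKM in both forms together. Its retention was 7.89, 7.43 and 28.8% in ZLD1039 tumours and 31.1, 8.35 and 8.02% in vehicle tumours, so 1 tumour of each group stood above the other 4. In those tumours the host was also lowest, at 487 FPKM in ZLD1039 tumour 3 and 512 FPKM in vehicle tumour 1, where the other 4 lay between 967 and 1279 FPKM. An intron of 1082 bases on the X chromosome, from 71493822 to 71494903, had 0.45, 13.6 and 9.83% in ZLD1039 tumours and 7.82, 12.2 and 10.6% in vehicle tumours. The other 3 of the 5 most abundant averaged 1.17, 0.41 and 0.50%. The first of these, on chromosome 1, had 7.02% in vehicle tumour 3 and 0% elsewhere, and the one on chromosome 5 had 2.11 and 0.87% in ZLD1039 tumours 2 and 3 and 0% elsewhere. The one on chromosome 19 was between 0.20 and 0.71% in the 6 tumours.

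The introns with the highest retention were near 100% in nearly every tumour. The 5 highest among introns with at least 10 FPKM averaged between 96.4 and 100.0%, on chromosomes X, 1, 19 and 15, where both introns of chromosome 15 belong to the same locus and share their retaining form. In the first of them, of 685 bases on chromosome X from 48434018 to 48434702, the retaining form was at 32.8, 29.7 and 26.0 FPKM in ZLD1039 tumours and 30.7, 29.1 and 21.3 FPKM in vehicle tumours, with the spliced form at most 0.059 FPKM. Its host was at 183 ± 25.9 FPKM in ZLD1039 and 159 ± 53.9 FPKM in vehicle tumours (SD, n = 3 each), so these forms are a minor part of the locus. The 5 lowest above 0 averaged at most 0.00060%, in hosts with group means between 24.6 and 167 FPKM, where the retaining form was listed at traces far below 1 FPKM.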

How the data were processed

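RNA was measured in 6 A375 xenograft tumours, grouped and numbered by their titles. Per the file headers, the authors deposited 1 table of events per tumour with the FPKM of each event. Bead-purified mRNA went into SMARTer libraries, per the labels' protocols. Tools named in the submitters' processing notes are HTSeq 0.6.1 and bcl2fastq 2.17.1.14, with mm10 as the build. How reads were aligned, assembled and listed as events is not given in the sources used here. That build cannot be the one of the files: chromosome 1 reaches 249214145, past the 195323493 annotated in mm10, and chromosome numbers reach 22. The chromosome numbers and the highest position on chromosome 1 would fit human GRCh37, as far as is known of it. A comparison of the other chromosome lengths is not given here. No human genome or symbol table was used, so no sequence is shown, the lists of splicing, decay, Polycomb and melanoma genes and the cell type markers were not applied, and 0 Ensembl identifiers matched the table of names at hand.

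Repeated lines (27205 of 811515) were dropped, structures with the same start and end were summed, and an event missing from a tumour was given 0. A host locus had the largest of its summed start events, summed end events and largest event. Depth is unknown and FPKM values are not counts, so no count model was used. The fit was limma's (version 3.58.1, R 4.3.3) with a trended prior variance, adjusted by Benjamini-Hochberg at 0.05 over each whole table. It ran on retention in percent (mean total of at least 1 FPKM, total above 0 in 6 tumours, mean share over 1% and under 99%) and on log2(FPKM + 1) of events and loci with at least 1 FPKM in a group mean. On that scale a change at low FPKM comes out too small. Events with equal values in a group, often 0, carry little variance, and the shared variance then sets their error. Means per tumour were compared with exact two-sided permutation tests (scipy 1.17.1). The fits were tested on simulated data drawn from normal distributions, which lack the bounds and the many values of 0 of real retention. The members and lists were chosen with earlier results of these data known.

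Introns were named if a form or their retention was called, if they were among the 8 largest differences in each direction with separate groups and at least 5 FPKM, or among the 5 longest, most abundant, highest or lowest in retention (at least 10 FPKM for the last 2). Alternatives varied the filters, the pseudocount, the trend, the scale, the forms summed and the tumours left out.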

Additional observations from a re-analysis of the deposited data

How the results depend on the processing

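The number of long introns called for retention was 0 with a trend and 1 without it (the chromosome 20 intron, limma, adjusted p = 0.0044). It was 0 on a log2 ratio scale (smallest adjusted p = 0.069) and 0 without each tumour in turn. The 2 called forms came to 1 with no filter, 1 with a pseudocount of 0.1 and 1 with the largest structure in place of the sum, the last of these chosen after seeing the data. In each of these the chromosome 20 form was called. The called forms came to 0 and 0 at the lowest and highest without each tumour, and the called hosts likewise to 0 and 0. The 1 called host came to 0 with no filter, with a pseudocount of 0.1 and with summed start events. The difference in mean retention of -0.35 percentage points was 0.14 for introns over 1000 bases and 0.53 for those listed in all 6 tumours, a choice made after seeing the data. It ran from -1.05 to 0.37 without each tumour. The differences ran from -1.58 to -0.24 at 500 to 1000 bases, from -0.35 to 1.34 at 1000 to 2000, from -1.05 to 0.34 at 2000 to 5000 and from -3.45 to 2.25 over 5000 bases. The ZLD1039 minus vehicle difference of long minus short ran from -0.047 to 1.22. By host abundance they ran from -1.60 to 0.47 (lowest), -1.45 to -0.17 (middle) and -0.18 to 1.24 (highest). Signs turned without ZLD1039 tumour 1, ZLD1039 tumour 2, vehicle tumour 1 or vehicle tumour 3. With medians over introns, the difference was -0.36 at 1000 to 2000 bases, 0.79 over 5000 bases and -0.19 in the most abundant hosts, and with a minimum of 5 FPKM it was 3.85 over 5000 bases. The cause was not tested. Adding approximate event kinds, or keeping 1 intron for each set of values, both chosen after seeing the data, turned no sign of the mean difference.

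With a replicate block, 0 retentions, 0 forms and 0 hosts were called, and the mean difference stayed at -0.35 points (exact sign-flip test over pairs, p = 0.75). Replicate numbers did not pair the tumours: deviations of the same number correlated at -0.032, 0.020 and -0.061 over loci, and 0 of 6 tumours correlated best with their own number. Depth is unknown, so no value carries a counting interval, and differences below the intervals given are not resolved with 3 tumours a group.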

Other observations

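A few long introns had the retaining form listed in every tumour of 1 group and in none of the other. They were singled out for this listing after their values were seen, and the report gives their counts beside the shares of the whole table. Beside the chromosome 20 intron of the report, the ZLD1039 set holds an intron of 699 bases on chromosome 20 from 60897814 to 60898512. Its retention was 13.7, 9.17 and 12.2% in ZLD1039 tumours and 0% in each vehicle tumour. An intron of 561 bases on chromosome 9, from 139310843 to 139311403, had 13.9, 14.8 and 9.98% in ZLD1039 tumours and 0% in each vehicle tumour. Both kept a spliced form above 10 FPKM in all 6 tumours. An intron of 950 bases on chromosome 16, from 765984 to 766933, had 8.65, 17.2 and 14.6% in ZLD1039 tumours and 0% in each vehicle tumour. The other 3 lay on chromosomes 1, 22 and 6. Those on chromosomes 1 and 22 had mean totals of 3.03 and 2.57 FPKM, and that on chromosome 6 had retention of 2.35% or less. The chromosome 1 intron had 39.5, 60.1 and 96.1% in ZLD1039 tumours. Its 0% in vehicle tumours rests on traces, with the spliced form at 0.0021, 0.0076 and 0.0011 FPKM.

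In the vehicle set, an intron of 698 bases on chromosome 21, from 45745147 to 45745844, had retention of 0% in each ZLD1039 tumour and 8.49, 10.5 and 10.3% in vehicle tumours, with the spliced form at 26.1, 20.2 and 15.8 FPKM in ZLD1039 tumours and 21.2, 27.3 and 29.9 FPKM in vehicle tumours. An intron of 544 bases on chromosome 11, from 64664341 to 64664884, had 0% in each ZLD1039 tumour and 29.1, 33.4 and 35.2% in vehicle tumours, with the smallest unadjusted p of the long introns (limma, adjusted p = 0.72). Its retaining form was at 0.89, 0.88 and 0.89 FPKM in vehicle tumours, below 1 FPKM. The other 2 lay on chromosomes 10 and 3, at up to 15.7 and 39.2% in vehicle tumours.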
